A study of Homo sapiens with 23 samples.

Results

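Supervillin (SVIL) and LSD1 peaks from control SH-SY5Y cells at day 3 of BDNF treatment overlapped in 597 genomic regions that held no LSD1+8a peak of the same day. These regions were chosen by pooling 5 peak lists, merging peaks that shared at least 1 bp, and keeping each merged region with a SVIL peak and a day 3 LSD1 peak but none from LSD1+8a. They made up 1.85% of all 32188 merged regions, 42.0% of the 1421 regions with SVIL and 2.89% of the 20693 regions with day 3 LSD1. They held 612 of the 1452 SVIL peaks (42.1%) and 602 of the 20748 day 3 LSD1 peaks (2.90%). Below they are called the SVIL and LSD1 regions without LSD1+8a, or the member regions.

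LSD1 (KDM1A) is a flavin-dependent demethylase that removes methyl groups from lysines of histone H3, usually inside complexes with CoREST and histone deacetylases. Neurons splice an extra short exon, 8a, into the transcript and so make the isoform LSD1+8a, which has been tied to neuronal maturation. Supervillin is a large actin-binding protein best known from the membrane skeleton, and the series design names it as the cofactor of LSD1+8a.

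The study ran ChIP-seq in SH-SY5Y, a neuroblastoma line of human origin that matures towards a neuronal form under retinoic acid and brain-derived neurotrophic factor (BDNF). It holds 14 ChIP and 9 input samples, 23 in all, and 5 of the ChIP samples are used here as 1 peak list each, while the other 9 ChIP samples, among them all of H3K9me2, were not analysed here. The day 3 lists of SVIL, LSD1 and LSD1+8a all come from cells with control shRNA. The day 0 LSD1 lists come from cells infected with LSD1+8a shRNA (knockdown) and from cells with control shRNA. According to the labels' protocols, retinoic acid was given at 10 µM for 4 days and was followed by BDNF at 50 ng/mL for 3 days. Day 0 and day 3 are days of BDNF. The labels give a homemade antibody against LSD1+8a and a commercial one against LSD1, and do not say whether the LSD1 antibody also binds the isoform. The knockdown could not be checked, because the lists hold no transcript or protein level. Every group is 1 library, so no difference between knockdown and control or between days can be tested. All intervals are exact (Clopper-Pearson) 95% binomial intervals over regions and cover counting error only, since regions are not replicates.

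The SVIL list is short, with 1452 peaks and a median of 20 tags per peak, beside 20748 peaks and 50 tags for day 3 LSD1, 3378 peaks and 38 tags for LSD1+8a, 10248 peaks and 28 tags for day 0 LSD1 in knockdown cells, and 16882 peaks and 26 tags for day 0 LSD1 in control cells. The lowest peak score was 71.72 in the SVIL list and between 50 and 50.01 in the LSD1 and LSD1+8a lists. Whether the score means the same in each list was not tested. The absence of an LSD1+8a peak is an absence from a list of 3378 peaks and no measure of zero binding. The sources used here do not give total reads per library. Positions are on hg19, and no gene names are attached to regions, because no hg19 annotation was used here.

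Most of the member regions were already LSD1 regions at day 0 in control cells, and fewer were in knockdown cells. A day 0 LSD1 peak from knockdown cells lay in 241 of 597 member regions (40.4%, interval 36.4 to 44.4%), and one from control cells in 400 (67.0%, 63.1 to 70.8%). With the lowest SVIL score applied as a cut to all 5 lists, which shortens the day 0 lists, the knockdown share was 26.7% of 602 member regions and the control share 56.1%. With the upper 50% of each list by score, they were 27.3% of 264 for knockdown and 62.1% for control. Over all regions with day 3 LSD1, the same lists were found in 22.4% for knockdown and in 40.0% for control cells. Over all regions with SVIL they were found in 34.3% for knockdown and in 51.0% for control cells. The member regions thus lay above both backgrounds in both lists, although they are part of each.

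By pattern, 212 member regions (35.5%) were in both day 0 lists, 188 (31.5%) in the control list only, 29 (4.86%) in the knockdown list only and 168 (28.1%) in neither. The last set had SVIL and LSD1 peaks at day 3 without a listed LSD1 peak at day 0. Of the 241 member regions in the knockdown list, 88.0% were also in the control list. Of the 400 in the control list, 212 (53%, 48.0 to 58%) were also in the knockdown list, against 42.4% of all 16655 control day 0 regions.

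The other classes of region place these shares. Regions with SVIL, LSD1 and LSD1+8a, of which there were 228, had a day 0 LSD1 peak more often, at 64.0% (57.4 to 70.3%) in knockdown and 80.7% (75 to 85.6%) in control cells. Regions with LSD1 and LSD1+8a but no SVIL, 1780 in number, had 54% (51.7 to 56.4%) in knockdown and 66.3% (64.1 to 68.5%) in control cells. For the control list, the intervals of the member regions and of this class overlapped almost entirely, whereas for the knockdown list the member regions lay lower. The 18088 regions with day 3 LSD1 alone had 18.1% (17.6 to 18.7%) in knockdown and 36% (35.3 to 36.7%) in control cells, below the member regions in both lists. The 560 regions with SVIL but neither LSD1 nor LSD1+8a at day 3 had 13.2% (10.5 to 16.3%) in knockdown and 20.5% (17.3 to 24.1%) in control cells.

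**Figure D1:**
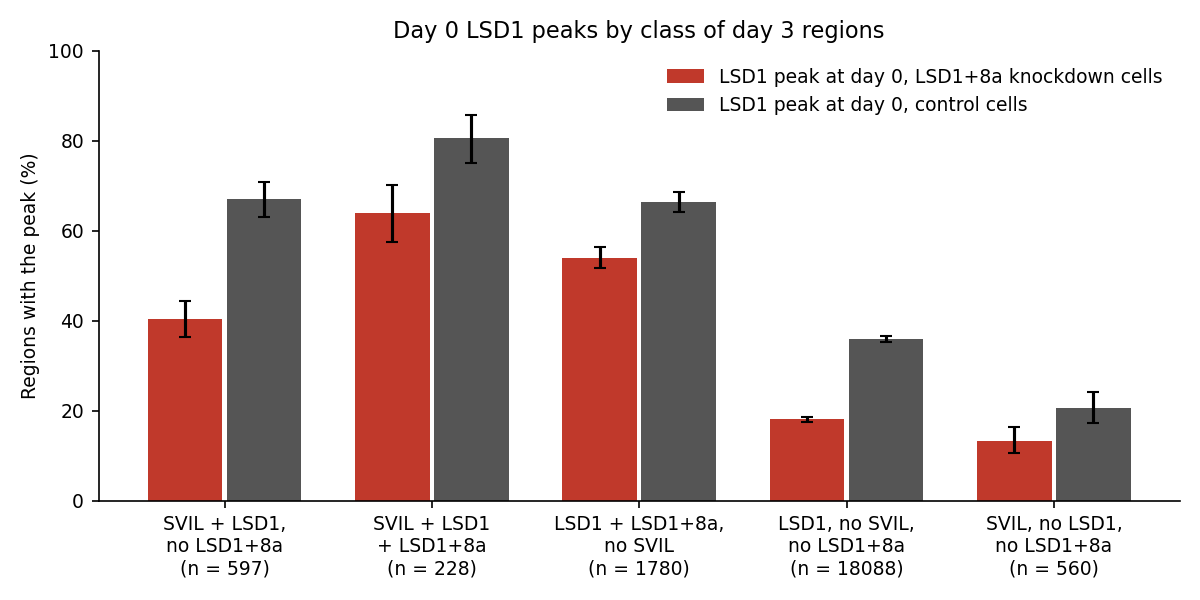
Share of regions in percent (vertical axis) that held a day 0 LSD1 peak from knockdown or control cells, by class of day 3 region, with exact 95% binomial intervals. The 597 member regions stood at 40.4% for knockdown and 67.0% for control cells, between the regions with all 3 day 3 lists, at 64.0% for knockdown and 80.7% for control cells, and those with LSD1 alone, at 18.1% for knockdown and 36% for control cells.

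The classes differ in peak strength and were therefore also compared at the same day 3 LSD1 scores. When the other classes were weighted to the score deciles of the member regions, the knockdown share was 40.4% in the member regions, 68.3% in the regions with all 3 day 3 lists, 53.5% in those with LSD1 and LSD1+8a without SVIL, and 25% in those with LSD1 alone. The control share was 67.0% in the member regions, 81.5% with all 3 day 3 lists, 66.6% with LSD1 and LSD1+8a without SVIL, and 47.0% with LSD1 alone. The weighted values with all 3 day 3 lists rest on few regions in the lower deciles, with 4 in the smallest decile and 126 in the highest. No interval was computed for the weighted shares. The member regions lay above the LSD1-only regions in 10 of 10 deciles for both lists. Against the regions with LSD1 and LSD1+8a without SVIL, they were higher in 1 of 10 deciles for knockdown and in 4 of 10 for control cells. Weighting by quintiles of tags or of peak length instead left the order of the knockdown shares as it was, with 62.8 and 63.8% for the regions with all 3 day 3 lists, 55.0 and 54% for those with LSD1 and LSD1+8a without SVIL, and 27.8 and 22.6% for those with LSD1 alone. For the regions with all 3 day 3 lists, the smallest quintile held 3 regions by tags and 14 by length.

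Among regions that had a control day 0 LSD1 peak, the member regions were found again in knockdown cells less often than the regions that carried LSD1+8a at day 3. The share was 212 of 400 (53%, 48.0 to 58%) in the member regions, 139 of 184 (75.5%, 68.7 to 81.6%) where SVIL, LSD1 and LSD1+8a met, 844 of 1181 (71.5%, 68.8 to 74.0%) with LSD1 and LSD1+8a without SVIL, and 38.4% (37.2 to 39.6%) with LSD1 alone. It was 63 of 115 (54.8%, 45.2 to 64.1%) in the regions with SVIL alone, an interval that contains the member regions' value. The share climbed with the control day 0 score. In the member regions it was 29.5, 35.0, 41.4, 56.9 and 68.1% across the quintiles of the control day 0 list by score, lowest first, for 44, 40, 70, 102 and 144 regions. In the regions with all 3 day 3 lists it was 54.5, 46.2, 73.9, 71.4 and 84.2% for 11, 13, 23, 42 and 95 regions.

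In the highest quintile the member regions stood at 68.1% (59.8 to 75.6%), against 84.2% (75.3 to 90.9%) with all 3 day 3 lists, 87.7% (84.5 to 90.4%) with LSD1 and LSD1+8a without SVIL, and 72.6% (70.1 to 75%) with LSD1 alone. The member regions therefore lay below both classes that carried LSD1+8a in 5 of 5 quintiles, and above the LSD1-only regions in 4 of 5. They also lay below the regions with SVIL alone, which have no LSD1+8a peak, in 5 of 5. The share in those was 30, 52.9, 42.9, 57.7 and 77.4%, on 17 to 31 regions a quintile, and its interval overlapped that of the member regions in 5 of 5. The intervals of the member regions and the regions with all 3 lists overlapped in 5 of 5 quintiles, if only just in the highest. Those of the member regions and of the regions with LSD1 and LSD1+8a without SVIL overlapped in 4 of 5, and were apart in the highest. Weighted to the member regions' quintiles, the share was 53% in the member regions, 72.1% with all 3 day 3 lists, 70.2% with LSD1 and LSD1+8a without SVIL, 46.8% with LSD1 alone and 58.7% with SVIL alone.

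**Figure D2:**
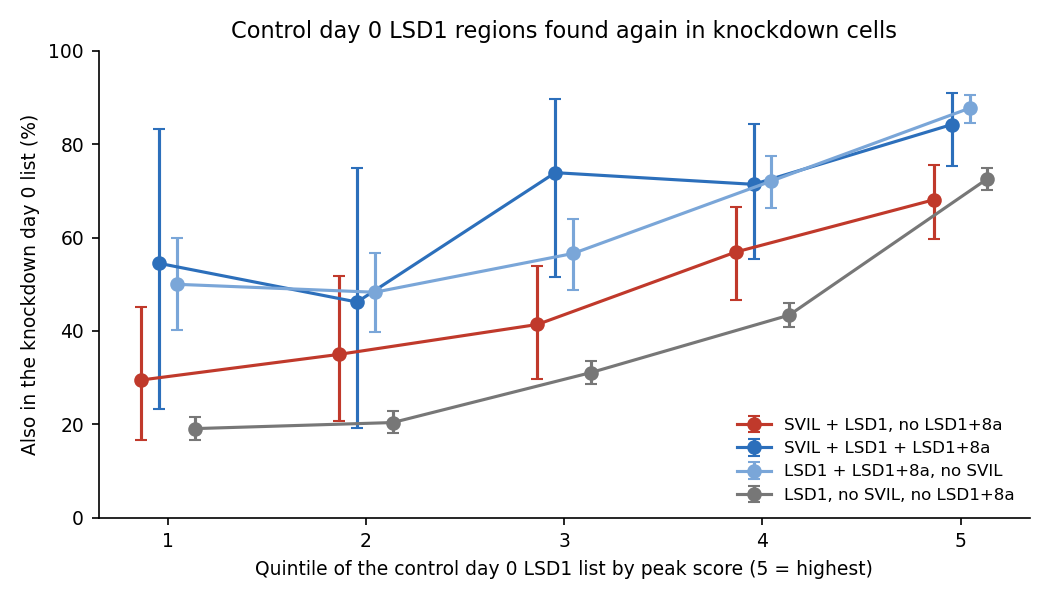
Share in percent (vertical axis) of control day 0 LSD1 regions that also held a knockdown day 0 LSD1 peak, across quintiles of the control day 0 list by peak score (horizontal axis, 5 highest), for 4 classes with exact 95% binomial intervals. The member regions (red) go up to 68.1% in the highest quintile and stay below both classes with LSD1+8a in each quintile.

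Most day 0 peaks in the member regions also covered the day 3 summits, which follows in large part from the overlap of long peaks. The day 3 LSD1 summit of the member regions fell inside a knockdown day 0 peak in 38.5% and inside a control day 0 peak in 65.8%. The SVIL summit did so in 37.7% for knockdown and 64.8% for control cells. The regions with all 3 day 3 lists had 61% for knockdown and 79.4% for control cells at the SVIL summit. In the LSD1-only regions the LSD1 summit fell inside a knockdown day 0 peak in 16.9% and inside a control day 0 peak in 34.4%. Those regions held such a peak in 18.1% for knockdown and 36% for control cells.

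The member regions were strong in the LSD1 list and ordinary in the SVIL list. The values that follow are the authors' values per peak, used within a list only, and membership rests on the day 3 lists, so they describe the regions and test nothing. The LSD1 peak had a median of 92 tags (quartiles 59 and 137, range 18 to 749) in the member regions, 115.5 in the regions with all 3 day 3 lists and 48 in the LSD1-only regions. Its median fold enrichment was 18.3 in the member regions, 25.6 with all 3 lists and 17.05 with LSD1 alone. The LSD1 peaks of the member regions also spread wide, with a median of 1333 bp against 1023 bp with LSD1 alone. The highest decile of the LSD1 list by score held 172 of the 597 member regions (28.8%), and the lowest held 27 (4.52%).

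The SVIL peak of the member regions had a median of 19 tags (quartiles 16 and 26, range 8 to 123), a median fold enrichment of 17.65 and a median length of 313 bp. In the regions with all 3 day 3 lists the SVIL peak had a median of 22.5 tags. The highest decile of the SVIL list held 35 member regions (5.86%) and the lowest 49 (8.21%), with the most, 74 (12.4%), in the sixth. SVIL and LSD1 scores hardly ran together across the member regions (Spearman 0.0978, Pearson 0.0527, n = 597 regions that share their libraries).

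Member regions listed at day 0 in control cells had more day 3 LSD1 tags at the median than those in neither list, but the day 0 shares did not climb steadily with the day 3 LSD1 score. Median day 3 LSD1 tags were 115.5 in the 212 member regions of both day 0 lists, 86 in those of the knockdown list only, 104 in those of the control list only and 61 in those of neither. Median SVIL tags moved less, at 20.5 in both, 19 in the knockdown list only, 19 in the control list only and 18 in neither. The day 3 LSD1 peaks of the regions in neither list were also shorter, with a median of 1099 bp against 1543.5 bp in both. Across the deciles of the day 3 LSD1 list by score, lowest first, the knockdown share of the member regions was 55.6, 31.2, 46.7, 32.5, 39.5, 25, 32.8, 29.5, 36.3 and 52.9%, and so was as high in the lowest as in the highest decile. The control share lay between 41.9 and 73.3% in the 9 lower deciles and was 87.8% in the highest. The lowest decile holds 27 member regions and the highest 172.

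A higher SVIL score went with a larger day 0 share. Member regions in the top 3 deciles of the SVIL list had a knockdown peak in 50.3% (42.0 to 58.7%) and a control peak in 78.2% (70.7 to 84.6%), while those in the lowest 3 had a knockdown peak in 30.6% (23.9 to 38.1%) and a control peak in 57.8% (50.1 to 65.3%). The control day 0 score ran only weakly with the SVIL score (Spearman 0.219, Pearson 0.306, n = 400 regions).

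**Figure D3:**
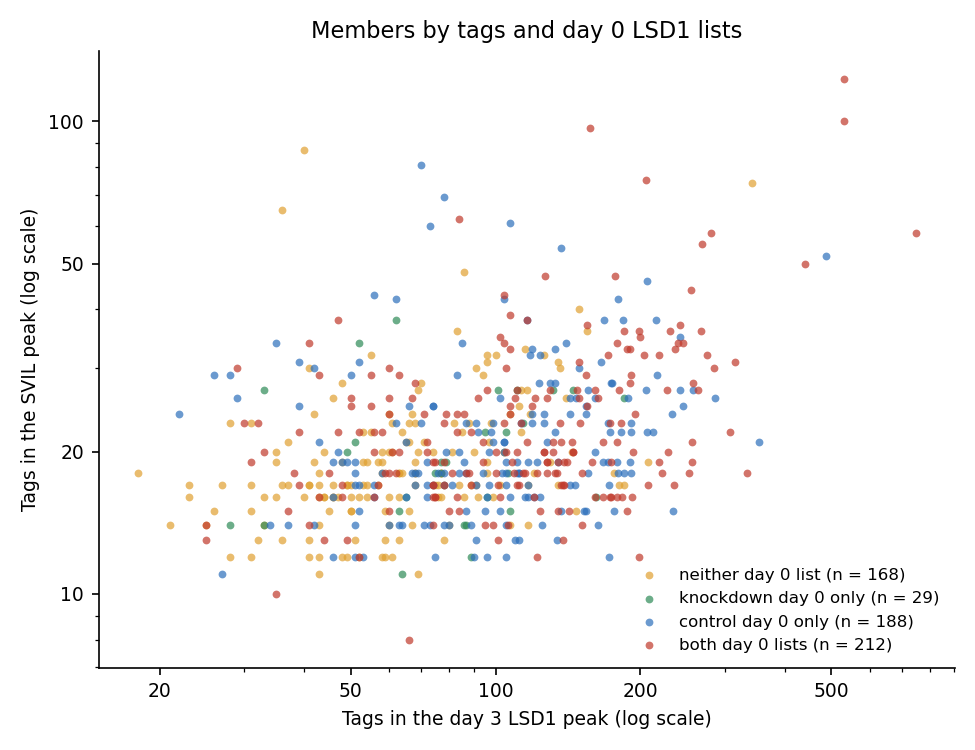
Tags in the SVIL peak (vertical axis, log scale) against tags in the day 3 LSD1 peak (horizontal axis, log scale) for the 597 member regions, coloured by their day 0 LSD1 lists. Regions in neither day 0 list (n = 168, median 61 LSD1 tags) sit mostly at the left, and regions in both (n = 212, median 115.5 LSD1 tags) at the right.

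SVIL peaks were short and lay within the LSD1 peaks. The SVIL peak was wholly inside the LSD1 peak in 587 of 597 member regions (98.3%), much as in 224 of 228 regions with all 3 day 3 lists (98.2%). The LSD1 peak was a median of 4.20 times as long as the SVIL peak (quartiles 3.35 and 5.82). The summits lay close, a median of 75 bp apart (quartiles 33 and 156 bp) in the member regions and 89.5 bp in those with all 3 lists. In the member regions, 35.0% of summit pairs lay within 50 bp, 358 of 597 within 100 bp, 79.4% within 200 bp and 94.0% within 500 bp, and the farthest pair lay 1674 bp apart. The SVIL summit was in the middle 50% of the LSD1 peak in 527 regions (88.3%), and the LSD1 peak's own summit in 550 (92.1%).

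Where a member region held a day 0 LSD1 peak, the summit of that peak lay close too. Only day 0 peaks in the same merged region enter here, which by itself keeps these distances short. The SVIL summit lay a median of 97 bp from the knockdown day 0 LSD1 summit (n = 241) and 85 bp from the control day 0 LSD1 summit (n = 400), and the day 3 LSD1 summit lay 71 bp from that of control day 0. In the regions with all 3 day 3 lists, the SVIL summit lay 95.5 bp from the knockdown and 97.5 bp from the control day 0 summit. In the regions with SVIL alone, the control day 0 distance was 104 bp. No such distance was computed for the LSD1-only regions. With sonicated fragments of 300 to 800 bp, differences of this size cannot be told from the same position.

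**Figure D4:**
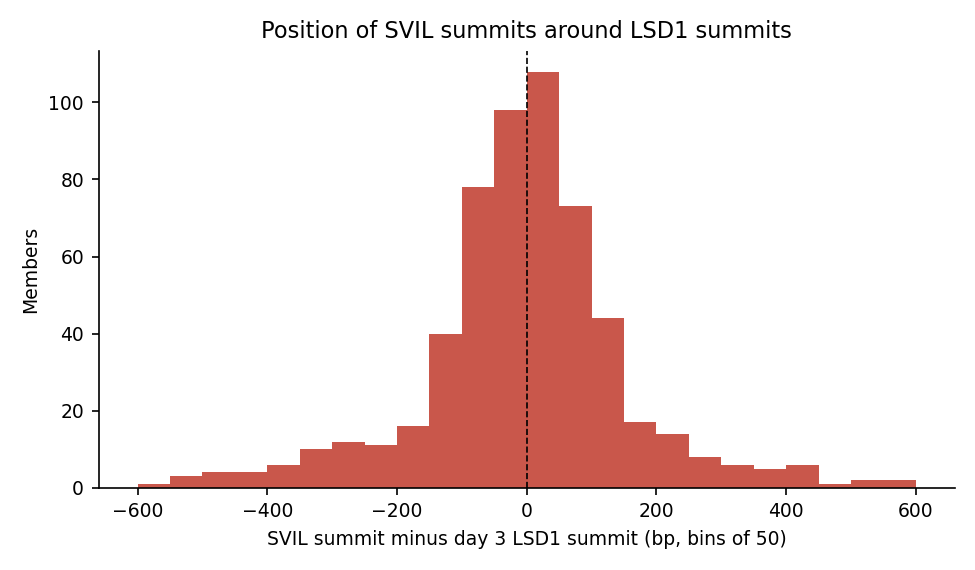
Offset of the SVIL summit from the day 3 LSD1 summit in bp (horizontal axis) for the member regions, as a number of regions per 50 bp (vertical axis). The offsets centre on the LSD1 summit (dashed line), with a median distance of 75 bp, and 28 member regions lie beyond the plotted 600 bp on either side.

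Few member regions lay close to a peak of the LSD1+8a list, which holds 3378 peaks. The nearest LSD1+8a peak edge was a median of 165413 bp away (quartiles 56602 and 446813 bp). Only 5 member regions lay within 500 bp of an LSD1+8a peak, 7 within 1 kb (1.17%) and 47 within 10000 bp (7.87%). The 3 nearest were chr2:29338718-29339896 at 175 bp, chr20:37504760-37505646 at 259 bp and chr14:101249914-101251500 at 377 bp. LSD1-only regions were not measured in this way. The distance does not show whether LSD1+8a binding below the caller's threshold was present. On the LSD1 side, 28 of the 560 regions with SVIL alone (5.0%) lay within 1 kb of a day 3 LSD1 peak, and 132 (23.6%) within 10000 bp.

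At the edge of the rule, the smallest overlap of a SVIL and an LSD1 peak was 9 bp, at chr3:25614261-25615587, with 17 SVIL tags and 41 LSD1 tags. The next were 46 bp at chr7:128595078-128596711 and 91 bp at chr10:6061120-6062118. Just outside, the SVIL regions chr2:127667103-127667429, chr14:76438297-76438745 and chr1:88646252-88646458 missed an LSD1 peak by 98, 115 and 126 bp. The lowest LSD1 score in a member region was 50.02, at chr6:53412463-53413591, where SVIL had 13 tags and LSD1 25. In 5 member regions the best SVIL and the best LSD1 peak did not touch, and another peak of the region joined them.

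Regions with high ranks in both lists show what a strong shared peak looks like. Ranked by the worse of its SVIL and LSD1 ranks, chr3:64597678-64599527 came first, with 34 SVIL tags (24.2-fold, rank 99 of its list) and 245 LSD1 tags (38.9-fold, rank 94). It had 35 tags at day 0 in knockdown cells and 50 tags in control cells. Next came chr7:133430965-133436613, with 100 SVIL tags and 530 day 3 LSD1 tags, and with 87 day 0 tags in knockdown and 205 in control cells. After it came chr6:26222700-26226607, with 27 SVIL and 264 LSD1 tags, and 26 day 0 tags in knockdown and 48 in control cells. Each was an LSD1 peak on both days and in knockdown cells.

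Of the other 7 among the first 10, 5 were also in both day 0 lists, at chr17:29751866-29753381, chr1:199585512-199587789, chr2:122287575-122289031, chr8:125092501-125094081 and chr2:6889953-6891814. The region chr1:166241984-166243732, with 27 SVIL and 242 day 3 LSD1 tags, had no knockdown peak, and its control day 0 peak held 91 tags. The region chr18:52584742-52587224, with 17 SVIL and 185 LSD1 tags, was in neither day 0 list, and its SVIL summit lay at -1369 bp from the LSD1 summit.

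Of the 5 best SVIL peaks in member regions, 3 sat on LSD1 peaks in the lower ranks of their list. The best SVIL score was at chr17:75677810-75678692, with 87 SVIL tags (54.6-fold, rank 7 of 1452) but 40 LSD1 tags (rank 14552 of 20748) and no day 0 peak. Next were chr7:3113054-3114480, with 81 SVIL tags at rank 16 and 70 LSD1 tags at rank 20377, and chr11:86808343-86809399, with 65 SVIL tags and 36 LSD1 tags at rank 18447. The region chr1:16839864-16841086 had the steepest SVIL enrichment of the 5 best, 93.7-fold on 38 tags, with 116 LSD1 tags, and 41 day 0 tags in knockdown and 37 in control cells. The remaining one, chr10:29839285-29840597, belongs to a run of member regions described further on.

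The 5 best LSD1 peaks, in turn, carried SVIL peaks of 18 to 58 tags. The best LSD1 rank was at chr7:133464535-133470499, a region of 5965 bp with 749 LSD1 and 58 SVIL tags, and with 59 day 0 tags in knockdown and 91 in control cells. At chr8:95235563-95238449 there were 333 LSD1 and 18 SVIL tags, 71 day 0 tags in knockdown and 84 in control cells, and an LSD1+8a peak 712 bp away. At chr6:26156062-26159471 there were 256 LSD1 and 19 SVIL tags, and at chr3:193462603-193463765 there were 141 LSD1 tags at 90.2-fold and 19 SVIL tags. The longest regions were chr1:246033631-246040101 with 6471 bp, the chr7 region of 5965 bp, chr14:100904018-100909918 with 5901 bp, chr1:211662947-211668698 with 5752 bp and chr11:71944342-71950065 with 5724 bp.

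The highest tag counts were not all steep peaks. Chosen after their values were seen, chr16:33962583-33965893 had 123 SVIL tags at 9.69-fold, with 414 day 0 tags in knockdown and 434 in control cells, and chr12:20704040-20704766 had 97 SVIL tags at 6.0-fold, with 146 day 0 tags in knockdown and 151 in control cells. Their LSD1 tags at day 3 were 532 and 157, at LSD1 ranks of 19571 and 16091. No list of regions prone to high signal in any library, such as repeats, was applied. The source of the tags in these regions was not tested.

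Some member regions lay in runs. With gaps of at most 25 kb, 47 of the 597 (7.87%) fell into 21 runs, and with gaps of at most 100 kb, 109 (18.3%) fell into 48 runs. Runs were counted for member regions only, so these shares do not show whether member regions cluster more than other regions. The longest run at 25 kb was on chromosome 10, from 29756482 to 29784349, with 4 member regions. These were chr10:29756482-29757103, chr10:29759007-29759577, chr10:29769280-29770123 and chr10:29783700-29784349. Their SVIL peaks had 24, 34, 29 and 31 tags, their day 3 LSD1 peaks 22, 35, 26 and 39 tags, and their control day 0 peaks 27, 54, 54 and 23 tags, while none was in the knockdown list.

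At gaps of up to 100 kb this run reached 29840597 and held 6 member regions. Its last 2 had 60 and 69 SVIL tags, 73 and 78 day 3 LSD1 tags, and 137 and 157 control day 0 tags. All 6 were thus in the control day 0 list and none in the knockdown list. Of all 400 member regions in the control list, 188 were in that list only. Over the whole stretch the authors' lists held 8 SVIL, 8 day 3 LSD1, 1 LSD1+8a, 0 knockdown and 15 control day 0 peaks. RefSeq, on GRCh38.p14, also places the gene SVIL on chromosome 10. Whether the run lies in that gene was not tested, because positions were not moved between builds. The day 3 LSD1 peaks of the first 4 members were 514 to 634 bp long, against a median of 1333 bp over all member regions. Tags from chromosomal DNA cannot be told apart in these lists from tags of other DNA with the same sequence, such as a plasmid or cDNA, and the source of the tags in this run was not tested.

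A second run on chromosome 10, from 6061120 to 6068182, had 3 member regions, 3 of them in the control and 0 in the knockdown day 0 list. Their SVIL peaks had 11, 42 and 30 tags, their day 3 LSD1 peaks 27, 62 and 42 tags, and their control day 0 peaks 9, 23 and 19 tags. The lowest tag count of any peak in the control day 0 list was also 9. Of the 400 member regions in that list, 212 (53%) were also in the knockdown list, and of all 16655 control day 0 regions 42.4%. The chromosome 10 runs were looked at in detail after their values were seen, and each pattern rests on 1 knockdown and 1 control library.

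On chromosome 7, between 133303399 and 133524967, 5 member regions followed each other with gaps under 100 kb. Their day 3 LSD1 peaks had 155, 341, 530, 749 and 487 tags and their SVIL peaks 36, 74, 100, 58 and 52 tags. The first 2, chr7:133303399-133304984 and chr7:133387013-133389966, were in neither day 0 list and were among the 3 best ranked member regions of that kind. The middle 2 had 87 and 59 day 0 tags in knockdown and 205 and 91 in control cells, and the last had a control day 0 peak of 187 tags but none in knockdown cells.

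Member regions were unevenly spread over the chromosomes. Chromosome 1 held 99 (16.6%), against 10.1% of all day 3 LSD1 regions, and chromosome 7 held 75 (12.6%), against 6.47%. Chromosome 2 held 62 (10.4%), against 9.03%, and chromosome 17 held 43 (7.20%), against 3.86%. Chromosome 13 held 4 (0.670%), against 3.18%, and chromosome 21 held 2 (0.335%), against 0.923%. Each chromosome was then split at its longest stretch without a region, which need not be the centromere, into a proximal part of lower and a distal part of higher positions. Of the day 3 LSD1 regions, 6.59% (5.17 to 8.25%) were member regions in distal 1, 6.40% (4.86 to 8.25%) in distal 7, 6.40% (3.90 to 9.81%) in proximal 10, 5.75% (4.08 to 7.84%) in distal 17 and 5.15% (3.73 to 6.89%) in proximal 2, against 2.89% over the genome. Of the 19 member regions in proximal 10, 6 and 3 lay in the 2 chromosome 10 runs described above. At the other end of the range were distal 13 with 0.261% (0.00661 to 1.45%) and proximal 5 with 0 of 111.

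The 5 parts with the highest shares held 223 of the 597 member regions (37.4%, 33.5 to 41.4%). They were picked by that share, so a high value for the member regions was fixed beforehand, and the interval ignores the choice. The same parts held 36.8% of the regions with all 3 day 3 lists, 27% of the regions with SVIL alone and 16.5% of the LSD1-only regions. Their day 3 LSD1 regions had a median of 63 tags, against 47 elsewhere, but those of proximal 10 had 42. A second set, also chosen after its values were seen, takes in both parts of 7 and leaves out proximal 10, although proximal 7, at 4.18%, ranks below both proximal 10 and proximal 22 (4.41%). Distal 1, distal 17, proximal 2 and both parts of 7 held 224 of the 597 member regions (37.5%, 33.6 to 41.5%). They held 41.2% of the regions with all 3 day 3 lists, 29.3% (25.5 to 33.2%) of the regions with SVIL alone and 17.4% of the LSD1-only regions. They also held 19.4% of the knockdown and 19.1% of the control day 0 LSD1 regions and 23.7% of the LSD1+8a regions. In this second set a day 3 LSD1 region had a median of 65 tags at 15.15-fold, against 47 tags at 17.7-fold elsewhere. The median peak length was 1229 bp, against 1011 bp elsewhere, so more tags per peak came with longer peaks and a lower fold. SH-SY5Y is known to carry extra copies of several chromosome stretches, among them chromosome 7 and parts of 1, 2 and 17. The second set takes its parts from these same chromosomes and does not follow rank. Copy number was not examined here, and its part in the uneven spread was not tested. Without the second set 373 member regions were left, of which 41.6% were in the knockdown and 64.3% in the control day 0 list, beside 40.4% for knockdown and 67.0% for control with it. Without the 5 parts of highest share 374 were left, with 41.7% in the knockdown and 64.2% in the control day 0 list.

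**Figure D5:**
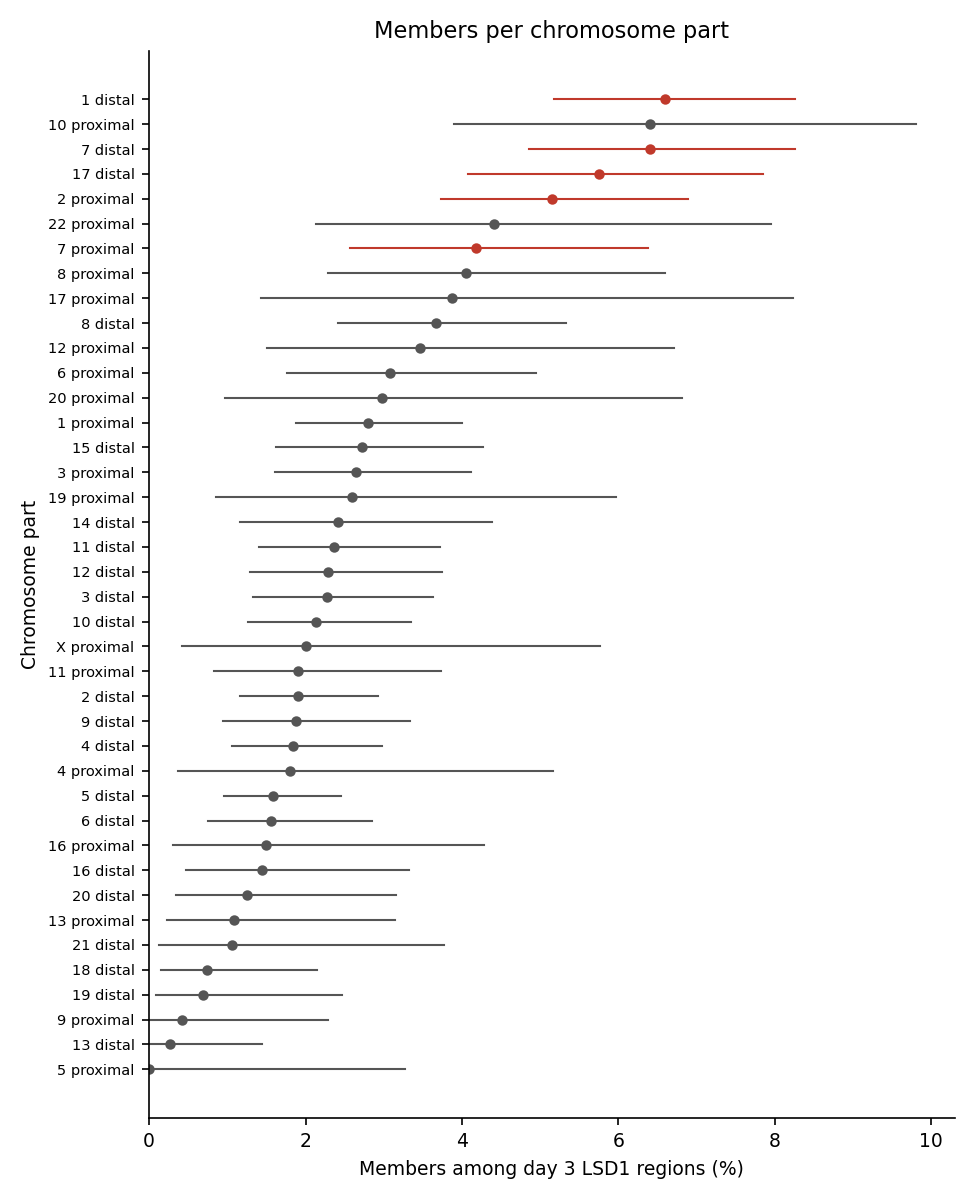
Share of day 3 LSD1 regions that were member regions in percent (horizontal axis) by chromosome part (vertical axis), with exact 95% binomial intervals, for the 40 parts with at least 100 day 3 LSD1 regions; distal 1, distal 17, proximal 2 and both parts of 7 are red. Distal 1 is highest at 6.59%, and proximal 5 holds 0 of 111.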

How the data were processed

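ChIP-seq peak lists of 5 SH-SY5Y libraries, 1 per group, were matched to samples by their titles. The submitters' processing notes name the tools CASAVA and Bowtie 1.0.0 and 2 builds, mm9 and hg19, and the lists, which hold human chromosomes, were read as hg19. The sources used here give neither the peak caller and its settings nor the reads of each library. Peaks were called by the authors per library. Deposited values per peak are the start, end and summit position in bp, the tag count (whole tags, not normalized), the fold enrichment (a ratio from the authors' caller) and a score whose column name is damaged in the file headers. Scores were used to rank peaks within a list. No per-sample column was left unused.

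Peaks sharing at least 1 bp were merged, and each region was assigned to a class by the lists it held. For each region and list, the highest scoring peak gave the values. Score deciles and quintiles were formed within lists. Comparisons at equal score weight the other class by the deciles or quintiles of the member regions and match nothing within a decile. The merging and overlap functions were tested on simulated data, which did not cover the intervals or the weighting. The members and the lists were chosen with earlier results of these data known. Named regions are the 10 with the best worse rank, the 5 with the best SVIL and the 5 with the best LSD1 rank, the 5 longest, the 3 best ranked in both and in neither day 0 list, those in the longest run and the 3 nearest to an LSD1+8a peak, of which the text gives most; others are said to be chosen after their values were seen. Python 3.11.15, numpy 2.4.6, pandas 2.3.3, scipy 1.17.1 and matplotlib 3.10.9 were used. Positions against genes, sequence content and gene lists were planned and not run, because no hg19 genome or annotation was used here.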

Additional observations from a re-analysis of the deposited data

How the results depend on the processing

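The number of member regions was 597, and it was between 568 and 619 under 7 of 10 alternatives. These changed merging, overlap, the distance to LSD1+8a, dense runs, the sex chromosomes and the lowest score. With the lowest SVIL score applied to all lists the number was 602, but not of the same regions. Member regions with a lower LSD1 score dropped out, and regions whose LSD1+8a peak fell below the cut could enter. The number was 264 with the upper 50% of each list by score. It was 373 without distal 1, distal 17, proximal 2 and both parts of 7, and 374 without the 5 chromosome parts of highest member share. The last 2 were chosen after seeing the data, and all 3 take peaks away by construction. With the upper 50% by score, 27.3% of member regions had a knockdown and 62.1% a control day 0 LSD1 peak, and with the lowest SVIL score applied to all lists these shares were 26.7% for knockdown and 56.1% for control cells. Both settings shorten the day 0 lists and the LSD1+8a list, so regions with a weaker LSD1+8a peak can count as member regions. Under the other 8, the shares were 40.1 to 41.7% for knockdown and 64.2 to 68.0% for control cells. Among regions with a control day 0 peak, the share also listed in knockdown cells was 38.4 and 41.4% in member regions under the 2 score settings, against 64.3 and 68.5% in regions with SVIL, LSD1 and LSD1+8a, and 52.8 to 57.1% against 75 to 77.2% under the others; this comparison was added after seeing the data. The median summit distance of 75 bp was 74 and 75 bp under its 2 alternatives. No paired analysis was possible because each group is 1 library, and leaving out a replicate was not possible for the same reason. Positions against genes, sequence content and gene lists were not run. The depth limits the statements: the median SVIL peak rests on 20 tags, so a region without a SVIL or LSD1+8a peak may hold binding below the caller's threshold.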
